A study of Canis rufus and Canis latrans with 56 samples.

Results

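The blood of 13 red wolves was divided by the level of a single probe, HBD, which carries the name of the human delta-globin gene and is used here to stand for red cell RNA. The wolves were chosen by that measured level. In 6 wolves, called the high side, the HBD probe lay above 6.35, and in 7 wolves, the low side, it lay below 6.35. They make up 13 of the 14 animals of the series, with 24 arrays on the high side and 28 on the low side of 56 in all. The remaining animal, a free-ranging coyote, belongs to neither side. HBD itself was not tested for a difference, and all other probes were described between the sides.

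The study collected whole blood from captive and free-ranging red wolves (Canis rufus), an endangered canid of North America. Per the labels' design text the wolves comprised 6 captive and 7 free-ranging ones. The labels used here tie no sex to a particular wolf and note only 3 wolves as collected in the wild, so status and sex do not describe either side as a whole. All animals share 1 treatment of the sample: whole blood in RNAlater, total RNA, amplification, biotin labelling and human Illumina bead arrays, with 4 arrays of the same labelled RNA per animal. Those 4 arrays are technical, so each wolf counts once, and how precise a value is depends on how many arrays were run.

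Mature red cells of mammals have no nucleus, and most of their remaining RNA is carried by reticulocytes, the youngest red cells in the circulation. Globin transcripts make up a large part of that RNA, and a reticulocyte completes its maturation by destroying its ribosomes and mitochondria. BNIP3L, a receptor on mitochondria that marks them for removal, and GATA1, the transcription factor that directs red cell formation, are widely used as red cell genes.

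Levels are given on the log2 scale relative to each array's mean, 1 per wolf after removal of slide effects, and a difference of 1 is a doubling of intensity. Gene names are those of the human probes. Which canid transcript bound to each probe was not measured here. The background bound used below is 0.395, the level of HPX, which was the brightest over the wolves of 43 measured genes of liver and skeletal muscle. Of 24353 probes tested, 2073 (8.51%) had a mean above it. A probe can be above it through 1 side alone, so counts and medians over such probes are descriptions. Across the arrays of the sides, the 95th percentile of the signal was 0.728 ± 0.0663 (SD, n = 6) on the high side and 0.719 ± 0.139 (n = 7) on the low side (exact permutation test over 1716 splits, two-sided, p = 0.882).

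HBD set the sides, so its values are given as a description. From the lowest wolf upward it stood at 5.43 in wolf 11310, 5.49 in 11136, 5.74 in 11270, 5.75 in 111080, 5.91 in 10537, 6.06 in 11206 and 6.13 in 10632 on the low side. On the high side it stood at 6.57 in wolf 10406, 6.64 in 11274, 6.69 in 11148, 6.72 in 11105, 6.73 in 11275 and 6.84 in 11273. The wolves nearest to the boundary were thus 10632 just below it and 10406 just above it, 0.44 apart. The high side was tight, at 6.70 ± 0.09 (SD, n = 6), and the low side wider, at 5.79 ± 0.27 (n = 7), which amounts to 1.88-fold between the means. The high side had the higher HBD mean on each of the 7 slides, by 0.31 to 1.24. All 3 wolves that the labels describe as collected in the wild (11310, 11136 and 111080) were on the low side, and the part of that note in the results was not tested. In whole blood, fewer cells of a type and less RNA per cell cannot be told apart.

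**Figure D1:**
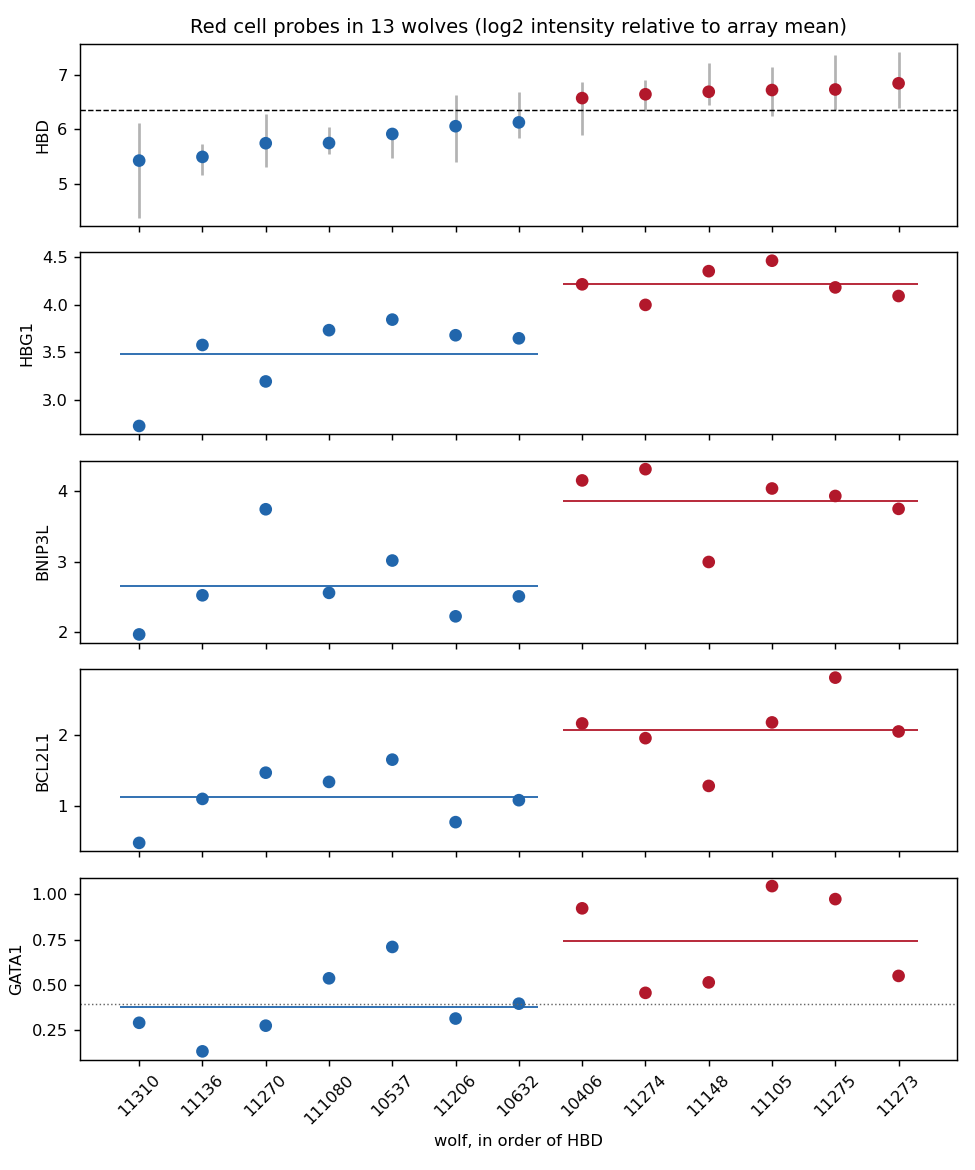
Levels of 5 red cell probes (log2 intensity relative to the array mean) in the 13 wolves, ordered by HBD; blue is the low side and red the high side. Grey bars in the HBD panel span the deposited values of a wolf's 4 arrays, while its point is adjusted for slide and can lie outside them. The dashed line is the boundary at 6.35, coloured lines are side means, and the dotted line is the background bound of 0.395. HBG1 stood between 4.00 and 4.46 on the high side and at 3.84 or lower on the low side, while the BNIP3L, BCL2L1 and GATA1 values of the sides overlap.

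The other globin genes are related to HBD and their probes may read the same RNA. Probe sequences were not examined, so the values of these probes too are a description. HBG1, a fetal globin gene in humans, ran from 4.00 over a median of 4.20 to 4.46 on the high side and from 2.73 over 3.65 to 3.84 on the low side. HBG2, its near-identical copy, ran from 4.08 to 4.44 and from 2.89 to 3.95. HBB, the adult beta-globin gene, ran from 1.17 to 1.44 and from 0.71 to 1.14. These 3 probes, of 9 measured in the list of globins and their chaperone, separated the sides without overlap. Without overlap and higher on the high side were 0.370% of all probes and 2.32% of those above the bound. The alpha-globin genes HBA2 and HBA1 differed by 0.33 and 0.16, and AHSP, the chaperone of free alpha-globin, by 0.14, all with overlapping sides. HBE1, HBQ1 and HBZ lay below the bound, with differences of -0.03, -0.03 and -0.06. None of the 9 probes passed limma's test over all probes (adjusted p of at least 0.186), and the 6 above the bound all had a difference above 0. A limma fit of the probes above the bound alone called HBG1 and HBG2 higher, but no call on a globin probe is read as a result.

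The markers of the label gave a mixed picture. BNIP3L ran from 2.99 over 3.99 to 4.31 on the high side and from 1.97 over 2.52 to 3.74 on the low side. Wolf 11148 of the high side, at 2.99, lay below wolves 11270 (3.74) and 10537 (3.02) of the low side, and every other wolf of the high side lay above the whole low side. Its difference was 1.22 (SE 0.31), a 2.32-fold higher intensity, positive on 7 of 7 slides (0.93 to 1.56), but the adjusted p in limma's fit of all probes was 0.0706. GATA1 ran from 0.46 over 0.74 to 1.04 and from 0.13 over 0.31 to 0.71, with a difference of 0.36 (SE 0.10, limma adjusted p = 0.0920). Its low-side mean was below the background bound, so the high side was at least 1.27-fold brighter. In limma's fit of the 2073 probes above the bound alone BNIP3L passed, at an adjusted p of 0.0352. GATA1 was admitted to that fit only through its high side. That fit called 209 of its probes higher (10.1%) and 200 lower (9.65%), so its calls are common among bright probes.

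Other defining red cell genes did not reach the background bound at all. ALAS2, the first enzyme of haem synthesis in red cells, had a mean level of -0.09, SLC4A1, the anion exchanger of the red cell membrane, -0.23, KLF1, an activator of adult globin genes, 0.24, and CA1, red cell carbonic anhydrase, -0.13. The label red cell RNA could thus not be checked against these genes, and the globin probes were not taken as an independent check of it.

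Across all probes, 48 of 24353 differed between the sides with an adjusted p under 0.05 in limma (0.197%). Of these 10 were higher on the high side (0.0411%) and 38 lower (0.156%). Among probes above the bound 31 were called (1.50%), 6 of them higher and 25 lower. The calls were close to the threshold, with an adjusted p of at least 0.04 for 38 of the 48. At an unadjusted p under 0.05, 1499 probes were higher and 1452 lower. Both side means lay below the bound for 12 of the called probes and 1 side mean for 19, so these 31 carry at most a lower limit for their fold.

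**Figure D2:**
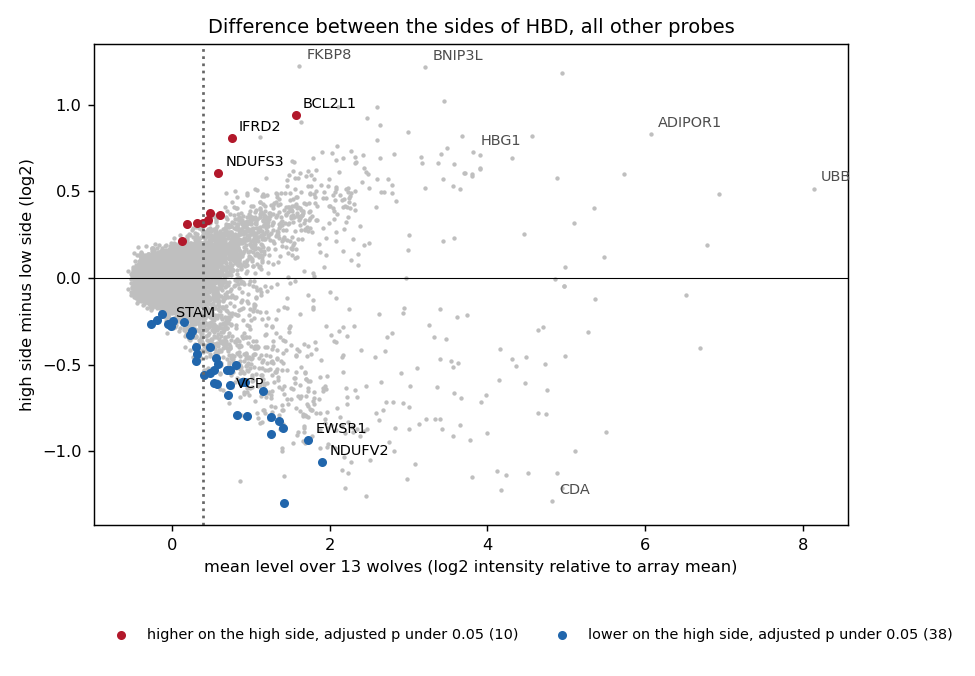
Difference between the sides (high minus low, log2) against the mean level over the 13 wolves for the 24353 probes other than HBD. Red points are the 10 probes higher and blue points the 38 lower on the high side at an adjusted p under 0.05, grey names mark probes that did not pass, and the dotted line is the background bound of 0.395. The called probes lie at low and middle levels, and the bright probes BNIP3L (1.22) and CDA (-1.29) have large differences without passing.

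Among the probes higher on the high side, IFRD2 had the smallest adjusted p of all. IFRD2 encodes a protein found on inactive ribosomes of reticulocytes. It ran from 1.04 over a median of 1.18 to 1.41 on the high side and from -0.03 over 0.36 to 0.83 on the low side. The sides did not overlap. The difference was 0.81 (SE 0.12, limma adjusted p = 0.0032), positive on 7 of 7 slides (0.46 to 1.15). Its low-side mean was below the background bound, and the high side was at least 1.74-fold brighter. It passed in all 28 of 28 alternative settings, among them the removal of each wolf in turn, with an adjusted p of at most 0.0434.

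BCL2L1, which encodes BCL-XL, the survival protein of late red cell precursors, ran from 1.29 over 2.10 to 2.80 on the high side and from 0.49 over 1.10 to 1.65 on the low side. Only wolf 11148 of the high side fell within the range of the low side. The difference was 0.94 (SE 0.20, 1.92-fold, limma adjusted p = 0.0467), and it lay between 0.82 and 1.07 on the 7 slides. The gene's other probe, below the bound, differed by 0.15 and did not pass. BCL2L1 passed in 14 of 28 alternative settings, 5 of them removals of 1 of the 13 wolves.

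NDUFS3, a core subunit of respiratory complex I, ran from 0.68 over 0.89 to 1.19 and from 0.04 over 0.23 to 0.71. The sides overlap only narrowly, and the difference was 0.61 (SE 0.10, limma adjusted p = 0.0106), at least 1.43-fold. The probes of PUS7L, a member of the pseudouridine synthase family, and UNG, the uracil-DNA glycosylase of base excision repair, separated the sides, with differences of 0.37 and 0.34 (limma adjusted p = 0.0413 for both). The low-side means of both were below the bound, and UNG's other probes, also below it, differed by -0.01 and -0.08. CDV3 and NAPB, which encodes a protein of vesicle fusion, differed by 0.32 each, HPD, an enzyme of tyrosine breakdown, by 0.31 and CCDC184 by 0.22, the latter pair with both side means below the bound. C1S, a complement protease, came next at 0.35 and did not pass (limma adjusted p = 0.0525).

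The list of reticulocyte maturation, mitophagy and autophagy had 26 measured members, of which 1, BCL2L1, passed, and 7 above the bound, of which 4 had a difference above 0. The median over those 7 was 0.41, against 0.08 for all 2073 probes above the bound, of which 60.0% had a difference above 0. Over all 26 members the median was -0.01. GABARAPL2, which coats autophagosomes, ran from 3.55 over 3.92 to 4.07 on the high side and from 2.42 over 2.87 to 4.03 on the low side (difference 0.75, limma adjusted p = 0.284). ATG16L1, a scaffold of the autophagosome membrane, differed by 0.41, while GABARAP, BECN1 and FIS1 of the same list differed by -0.26, -0.28 and -0.13. None of these passed.

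Genes known from reticulocyte-rich blood held no called member among 35 measured. Of 7 above the bound 5 had a difference above 0, and the median over the 7 was 0.14. Over all 35 the median was 0.04. PIP4K2A, a lipid kinase, ran from 2.84 over 3.16 to 3.35 on the high side and from 1.05 over 2.17 to 2.92 on the low side (0.99, limma adjusted p = 0.104). PITHD1 differed by 0.90 (adjusted p = 0.0662) and ADIPOR1, an adiponectin receptor, by 0.83 (0.218). IGF2BP2, an RNA-binding protein, ran the other way, at 0.22 to 0.32 on the high side and 0.25 to 1.01 on the low side (-0.39, limma adjusted p = 0.0618). In the fit of bright probes alone PIP4K2A and PITHD1 passed, and IGF2BP2 was admitted to that fit only through its low side. The fit called 10.1% of all its probes higher and 9.65% lower.

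The remaining red cell lists had no called member. Of 20 measured erythroid transcription factors 5 were above the bound and 4 of these had a difference above 0, with FOXO3 at 0.19, STAT5B at 0.15 and BCL11A, a repressor of fetal globin genes, at -0.26. Of 23 measured genes of the red cell membrane 4 were above the bound, and only 3 of these had a difference above 0. These 3 were DMTN, a protein that bundles actin under the red cell membrane (0.27), the water channel AQP1 (0.22) and BSG (0.22). Of 18 genes of haem synthesis and iron supply only TMEM14C was above it (0.15), and of 35 red cell enzymes 5, among them BLVRA, which reduces biliverdin (0.38), HAGH (0.27) and the glycolytic enzyme TPI1 (-0.39). Among 20 ubiquitin genes 5 were above the bound, and 3 of these had a difference above 0. UBB, which encodes ubiquitin, ran from 7.97 over 8.47 to 8.61 and from 7.26 over 8.02 to 8.37 (difference 0.52, limma adjusted p = 0.181). The difference was 0.03 after quantile normalization, and UBB was called higher in the fit of bright probes alone. The median differences of these lists above the bound lay between 0.04 and 0.23, and over all measured members between 0.001 and 0.02.

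**Figure D3:**
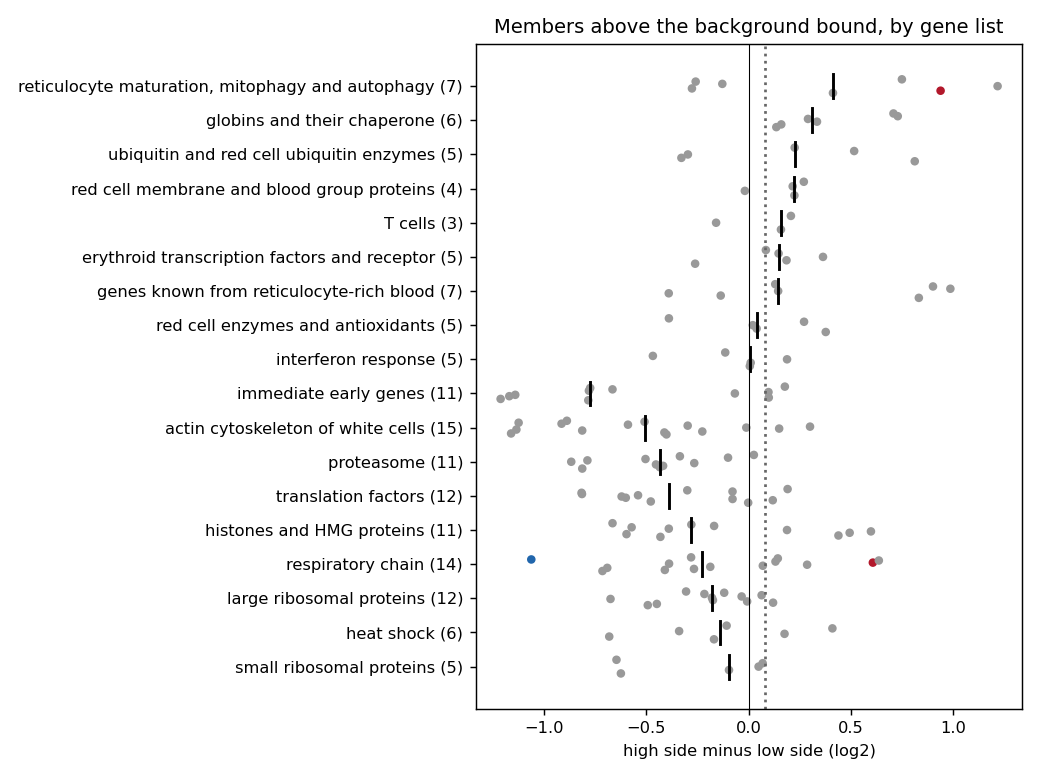
Difference between the sides (high minus low, log2) for the members above the background bound, in the lists with at least 3 such members (number in brackets). Each point is a gene, red or blue where it passed the adjusted p of 0.05, black bars are list medians, and the dotted line is the median of all probes above the bound, 0.08. Medians run from -0.77 for immediate early genes to 0.41 for reticulocyte maturation, mitophagy and autophagy, and 3 points are coloured.

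Further probes of high level separated the sides and were chosen for mention after their values were seen. Above the bound 48 probes (2.32%) stood without overlap higher on the high side and 0 (0%) lower, while over all probes 32 (0.131%) were lower without overlap. TMEM40 ran from 2.18 to 2.75 against 1.07 to 2.16, and PODN, an extracellular matrix proteoglycan, from 1.90 to 2.35 against 1.03 to 1.82. DCLK1, a kinase that binds microtubules, ran from 1.27 to 1.58 against 0.46 to 1.19. The probe of OR2D3, an olfactory receptor gene, ran from 4.05 to 4.38 against 3.02 to 4.00. The differences were 0.68, 0.59, 0.48 and 0.63, and none passed limma's test (adjusted p between 0.0754 and 0.354). FKBP8, a chaperone of the mitochondrial outer membrane, had a difference of 1.22 with overlapping sides, 1.63 to 3.15 against -0.19 to 2.44 (limma adjusted p = 0.0706).

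Of the 38 called probes lower on the high side 33 had a gene symbol, among them the following. NDUFV2, a subunit of complex I like NDUFS3, ran from 0.89 over 1.22 to 2.18 on the high side and from 1.63 over 2.59 to 2.96 on the low side. It fell by 1.06 (SE 0.24, 2.09-fold, limma adjusted p = 0.0492). Wolf 11105 was the wolf of the high side that reached into the low side's range. TIMM8B, which helps import proteins into mitochondria, ran from -0.05 over 0.20 to 0.65 and from 0.55 over 0.78 to 1.22, a difference of -0.61 (SE 0.10, limma adjusted p = 0.0106). ROMO1, a small protein of the inner membrane, differed by -0.82 and SLC25A28, mitoferrin 2, which carries iron into mitochondria, by -0.61 (limma adjusted p = 0.0467 and 0.0426).

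The respiratory chain as a list did not move one way. Of 65 measured members NDUFS3 was called higher and NDUFV2 lower, and of 14 above the bound 6 had a difference above 0, with a median of -0.23. Over all 65 the median was -0.001, and 32 had a difference above 0. NDUFV1, the flavoprotein partner of NDUFV2, ran from 2.62 to 3.0 on the high side and from 1.50 to 2.67 on the low side (0.64, limma adjusted p = 0.215). ATP5MC3 and ATP5F1A, subunits of ATP synthase, differed by -0.69 and -0.71, and NDUFB9 of complex I by -0.39 (adjusted p between 0.0556 and 0.274). In the fit of bright probes alone NDUFV1 was also called higher, and ATP5MC3 and NDUFB9 were also called lower. That made 2 of the 14 higher and 3 lower, where the fit called 10.1% of all its probes higher and 9.65% lower.

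VCP, the ATPase that extracts ubiquitinated proteins for degradation, ran from 0.14 over 0.35 to 0.60 on the high side and from 0.43 over 1.03 to 1.55 on the low side. The difference was -0.67 (SE 0.12, limma adjusted p = 0.0268), at least 1.55-fold. SEM1, a small subunit of the proteasome lid, differed by -0.65 (limma adjusted p = 0.0467). Among 34 measured genes of the proteasome list, which does not hold SEM1, none was called. Only 1 of 11 above the bound had a difference above 0, against 60.0% of all probes above it, and their median was -0.43. Over all 34 the median was -0.04, and 14 had a difference above 0. PSMB5, a catalytic subunit, ran from 0.48 over 0.78 to 1.87 and from 0.88 over 1.82 to 2.16 (-0.79, limma adjusted p = 0.0706). PSMB3 differed by -0.87, PSMA1 by -0.81, PSMC6 by -0.50 and PSMB10, a subunit of the immunoproteasome, by -0.45. PSMB3 and PSMB5 passed in the fit of bright probes alone, to which PSMB10 was admitted only through its low side. With PSMB10, that fit called 3 of the 11 lower, where 9.65% of all its probes were.

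EWSR1, an RNA-binding protein, ran from 0.73 over 1.15 to 1.84 and from 1.33 over 2.20 to 2.60 (-0.93, SE 0.20, limma adjusted p = 0.0467). Its other probe, below the bound, differed by -0.16 and did not pass. IRF2BPL, a transcriptional regulator, ran from 0.52 over 0.71 to 1.15 and from 0.86 over 1.84 to 2.04 (-0.90, SE 0.16, adjusted p = 0.0268). CELF1, a regulator of splicing and RNA decay, differed by -0.55, with its other probe at -0.07 and below the bound. The zinc-finger factor ZFHX3 differed by -0.56, the histone gene H2BC4 by -0.60, the initiation factor EIF2A by -0.50 and ENY2, a subunit of the SAGA complex, by -0.50. All 5 passed (limma adjusted p between 0.0273 and 0.0492).

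PLCG2, the phospholipase of B cell and myeloid receptors, ran from 0.20 over 0.36 to 0.75 on the high side and from 0.43 over 1.16 to 1.28 on the low side (-0.62, SE 0.12, limma adjusted p = 0.0273). TFEC, a transcription factor of myeloid cells, differed by -0.79, and DOCK2, the Rac activator of migrating white cells, by -0.53 (adjusted p = 0.0492 and 0.0467). CALU, a calcium-binding protein of the secretory pathway, differed by -0.80 and TMEM60 by -0.60. The largest called difference of all, -1.30, belonged to a probe without a gene symbol.

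**Figure D4:**
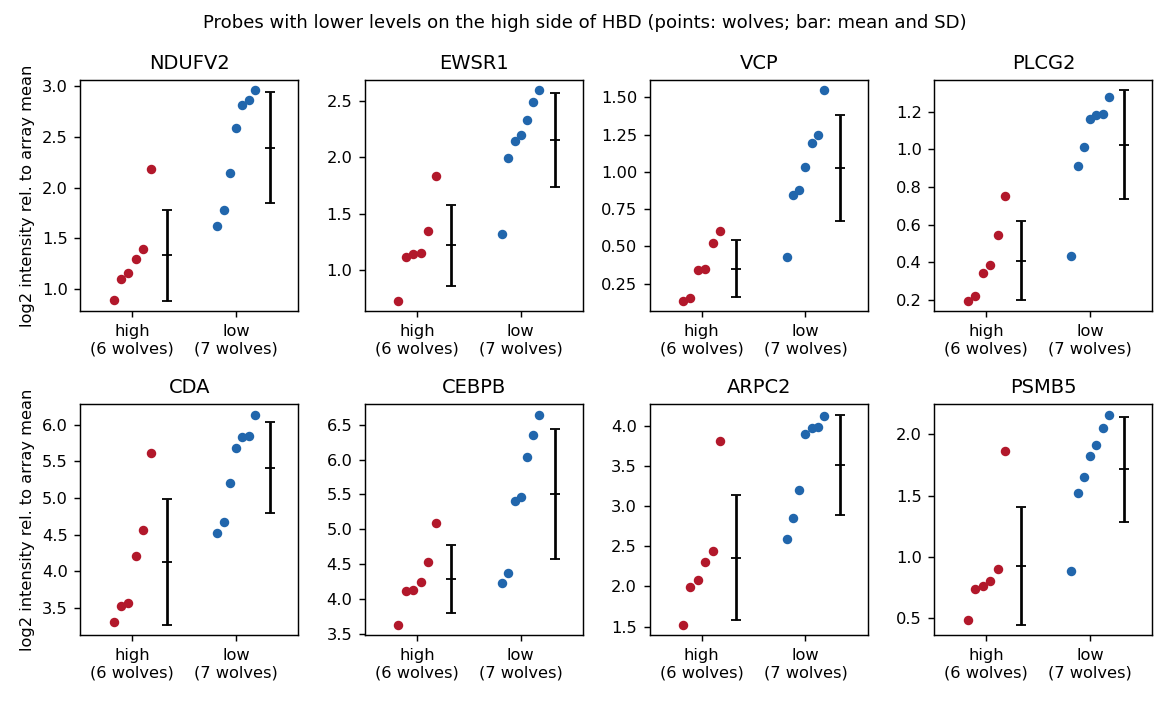
Levels (log2 intensity relative to the array mean) of 8 probes that stood lower on the high side; each point is a wolf, in order of its level, and the bar is the mean with its SD (n = 6 high, n = 7 low). The upper row (NDUFV2, EWSR1, VCP, PLCG2) passed the adjusted p of 0.05 and the lower row (CDA, CEBPB, ARPC2, PSMB5) did not. In the high-side groups of ARPC2, CDA and PSMB5 a single wolf stands above the rest, at 3.81, 5.61 and 1.87.

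Markers of other blood cells were mostly dark on these arrays, and none passed in the fit of all probes. Of 28 measured neutrophil genes CDA, cytidine deaminase of granulocytes, and NCF1, of the phagocyte oxidase, were above the bound. CDA ran from 3.31 over 3.89 to 5.61 on the high side and from 4.53 over 5.68 to 6.14 on the low side (-1.29, SE 0.37, limma adjusted p = 0.102). In the fit of bright probes alone CDA was called lower, as were 9.65% of all its probes. NCF1 differed by 0.15. Defining neutrophil genes such as S100A8 and CSF3R had mean levels of -0.24 and -0.05. The mean level of the neutrophil list, which includes CDA, ran from 0.09 to 0.14 on the high side and from 0.13 to 0.20 on the low side. The median difference over its 28 genes was -0.01, and 12 had a difference above 0. Monocyte genes were represented above the bound by 1 of 16 (TYROBP), T cells by 3 of 21 (LEF1 at 0.21, CD6 at 0.16 and LCK at -0.16), cytotoxic cells by 2 of 20 (GZMB at 0.18 and CTSW at 0.13) and B cells by 0 of 17. Of 21 platelet genes 2 were above it, with PF4 at 0.40 (1.31 to 1.92 on the high side, 0.54 to 1.80 on the low side) and GP1BB at 0.06. Of 10 genes of eosinophils and basophils 2 were above it, HDC among them at 0.17. NCF1, CD6, GZMB and GP1BB were above the bound only through their high side, so the bound itself favoured a difference above 0 for them. The mean levels of each of these 7 lists overlapped between the sides, and the part of white cell numbers in the results was not tested.

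The genes of the actin cytoskeleton, which are abundant in white cells, stood lower on the high side without a call. Of 34 measured, 15 were above the bound. Of these, 2 had a difference above 0, against 60.0% of all probes above the bound, and their median was -0.51. Over all 34 the median was -0.14, and 8 had a difference above 0. ARPC2, a subunit of the complex that branches actin filaments, ran from 1.52 over 2.20 to 3.81 and from 2.60 over 3.90 to 4.13 (-1.16, limma adjusted p = 0.102). LASP1 differed by -1.13, PFN1, profilin, by -1.12, MYL6 by -0.91, VASP by -0.89 and CORO1A by -0.81 (adjusted p between 0.0617 and 0.355). CFL1, cofilin, differed by -0.23, and its sign turned without wolf 111080. In the fit of bright probes alone 4 of the 15 were called lower (ARPC2, LASP1, PFN1 and MYL6), where 9.65% of all its probes were.

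Immediate early genes, which are induced rapidly when a cell is stimulated, had 11 members above the bound and no call. Of these 11, 3 had a difference above 0, against 60.0% of all probes above the bound, and their median was -0.77. Over all 25 measured members the median was -0.01, and 12 had a difference above 0. CEBPB, a transcription factor of myeloid cells, ran from 3.63 over 4.18 to 5.09 and from 4.23 over 5.47 to 6.64 (-1.21, limma adjusted p = 0.129). FOS ran from 0.20 over 0.73 to 1.87 and from 0.74 over 1.87 to 4.69 (-1.14, adjusted p = 0.173), with wolf 11310 alone at the top. EGR1 ran from -0.22 to 1.25 and from -0.13 to 5.47 (-1.17, adjusted p = 0.343), again with wolf 11310 at the top. The EGR1 probe was above the bound only through its low side. KLF6 and KLF2 differed by -0.77 and -0.66 (adjusted p = 0.0717 and 0.0876) and passed, with CEBPB, in the fit of bright probes alone. That fit called 3 of the 11 lower, where 9.65% of all its probes were.

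The lists of ribosomal proteins, translation factors, heat shock genes, histones with HMG proteins and interferon genes held no called member in the fit of all probes. The called genes EIF2A, H2BC4 and ENY2, given above, are not on these lists. Large ribosomal proteins had a median of -0.18 over 12 members above the bound and small ones -0.10 over 5, with RPL27 at -0.67 and RPS9 at -0.65. Translation factors had a median of -0.39 over 12, with EIF4G2 at -0.82, EIF4A2 at -0.81 and EIF3M at -0.54. Heat shock genes had a median of -0.14 over 6, with the chaperone DNAJA2 at -0.68. Histones and HMG proteins had a median of -0.28 over 11, from H2AZ1 at -0.60 to the linker histone H1-2 at 0.44 and H3-3A at 0.60. In the fit of bright probes alone DNAJA2 was called lower (1 of 6) and H1-2 and H3-3A higher (2 of 11). That fit called 9.65% of all its probes lower and 10.1% higher. The interferon response had a median of 0.01 over 5, with OAS2, a sensor of viral RNA, at -0.47 (limma adjusted p = 0.589). Over all measured members the medians of these lists lay between -0.03 and 0.01. MARCHF2, a ubiquitin ligase, and CDC14B, a phosphatase, which vary widely between wolves, differed by 0.81 and 0.53, with overlapping sides (adjusted p = 0.676 and 0.784).

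Of the called probes with both side means below the bound, STAM, an adaptor that sorts receptors in endosomes, had the smallest adjusted p. It ran from -0.25 over -0.19 to -0.13 on the high side and from 0.01 over 0.07 to 0.17 on the low side, without overlap (-0.27, SE 0.04, limma adjusted p = 0.0056). COPG2 (-0.30), ANKRD37 (-0.27), UBQLN2 (-0.25) and ITM2B (-0.25) also separated the sides at such levels. In all, 10 of the 48 called probes separated the sides, 5 in each direction.

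The number of calls hung on single wolves. Without wolf 10632, 11105, 11136 or 10537 the same comparison called 483, 460, 424 and 141 probes, which included all 48 in each case. Without any 1 of the other 9 wolves it called between 3 and 9. All 48 called probes kept their sign and an unadjusted p under 0.05 in every fit with 1 wolf removed. They had been picked from the same wolves at a much smaller p, so this is no independent check of the calls. The arrays of wolf 11136 spanned the smallest range of signal among the wolves, with a 95th percentile of 0.503. It was 0.594 in wolf 10632, 0.809 in 10537 and 0.853 in 11105, the largest of the high side. The part of signal range in these counts was not tested. Without the 3 wolves noted as wild, all of the low side, 3 probes were called, 1 higher and 2 lower, with IFRD2 at 0.82 (limma adjusted p = 0.0222). Without the slide that holds 1 wolf of the high side and 6 of the low side, 50 were called, 39 of them shared with the 48.

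**Figure D5:**
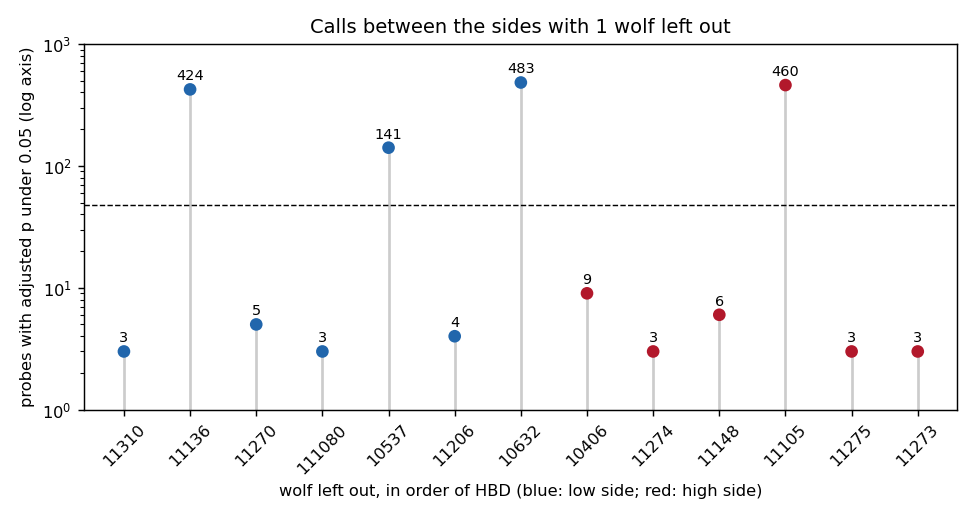
Number of probes with an adjusted p under 0.05 between the sides (log axis) when the wolf named on the x axis is left out; blue wolves are of the low side and red ones of the high side. The dashed line is the count with all 13 wolves, 48. Removal of wolf 10632, 11105, 11136 or 10537 lifts the count to 141 or more, and removal of any other wolf lowers it to 9 or fewer.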

How the data were processed

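Per the labels' design text, the authors read the arrays with BeadStudio (version 1.5.0.34, per the submitters' processing notes), took the log2 of the raw intensity and centred each array on its median. The deposited log2 values have array means of 0 instead (largest absolute mean 3.24e-09), and their spread was not made equal. The labels do not state whether a background was subtracted first. Each of the 7 slides holds 8 arrays. The annotation gives 1 symbol for 18339 of 24354 probes, and a gene on several probes was represented by its brightest in the lists.

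A first fit of animal and slide over the 52 wolf arrays gave 1 value per wolf. A second fit compared the sides over the 13 wolves in limma 3.58.1 (R 4.3.3; lmFit, eBayes with an intensity trend, Benjamini-Hochberg over 24353 probes, threshold 0.05, two-sided). HBD and the other probes were read on the same arrays. The procedure was tested on simulated data. "At least" folds set the brighter side against the background bound or the dimmer side's mean, whichever is higher.

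The members and lists were chosen with earlier results of these data known. Genes were named by a rule: the 15 largest called differences in each direction, further probes by p up to 10 where fewer passed, up to 5 bright members of each list, and the globins and most variable genes. STAM and other called probes beyond these and the bright probes that separated the sides were chosen after their values were seen. Alternatives changed the scaling, the probes tested, the slide term, the variance model, the arrays and the wolves. No canid sequence was used, and no coordinates are given.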

Additional observations from a re-analysis of the deposited data

Results flagged for a closer look

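Within the sides of 6 and 7 wolves, 19 of 222 sides of genes had 1 wolf far from the rest. EGR1, FOS and OAS2 were examined because they vary most between wolves, and many flags share a wolf. The count is therefore a description and is not set against a rate by chance. Wolf 11105 was the highest of the high side for 10 genes: CALU (1.45, others at most 0.786), SEM1 (1.28, others at most 0.817), SLC25A28 (0.663, others at most 0.211), HBB (1.44, others at most 1.26), PFN1 (5.54, others at most 4.35), MYL6 (2.27, others at most 1.19), PSMB5 (1.87, others at most 0.904), ATP5F1A (3.36, others at most 2.47), DNAJA2 (2.17, others at most 1.22) and OAS2 (1.63, others at most 0.336). The arrays of wolf 11105 also had the widest signal range of the high side (95th percentile 0.853, others at most 0.736). Its part in these 10 genes was not tested. Wolf 11148 was the lowest of the high side for DMTN (1.41, others at least 1.90), HAGH (1.13, others at least 1.68) and HDC (0.670, others at least 0.83).

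Wolf 10406, the high-side wolf nearest to the boundary, was the lowest there for UBB (7.97, others at least 8.38) and the highest for FOS (1.87, others at most 0.779). On the low side, wolf 11310 stood apart for FOS (4.69, others at most 2.34) and EGR1 (5.47, others at most 1.83) at the top and for DCLK1 (0.461, others at least 0.924) at the bottom. Wolf 10632, the low-side wolf nearest to the boundary, was the lowest for PSMA1 (1.03, others at least 2.09).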

How the results depend on the processing

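With all 13 wolves 48 probes were called, 10 higher and 38 lower on the high side. The counts were 300 (89 and 211) after quantile normalization, 17 (4 and 13) with 75th percentile centring and 409 (209 and 200) with only the probes above the bound. With the wolf as a random block on all arrays 1233 probes were called (516 and 717). There the arrays of a wolf had a consensus correlation of 0.071, so technical arrays counted nearly as separate replicates and the count is inflated. That fit is among the alternative settings counted for single genes. Counts were 4 (2 and 2) without the slide term and 6 (5 and 1) without an intensity trend. They were 885 (291 and 594) with the 95th percentile as a covariate and 199 (36 and 163) without the wolf nearest to the boundary on each side. Without the 3 wolves noted as wild they were 3 (1 and 2). With the continuous HBD level tested in place of the sides, 497 probes were called, 312 rising and 185 falling with HBD. With the sides taken from HBD on part of each wolf's arrays and the other probes from the rest, they were 48 (9 and 39) one way and 11 (5 and 6) the other. Only 19 of those 48 and 8 of those 11 were among the 48 called with all arrays. The sides were the same in both runs, so only the arrays that measured the other probes had changed. Removal of 1 wolf gave 3 to 483 calls, 1 to 80 higher and 1 to 403 lower. Equal spread of the arrays (46 calls), the coyote in the first fit (41) and removal of the slide with 1 high-side wolf (50, chosen after seeing the data) stayed within 1.5 times.

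The share of calls that were higher was 20.8% and ran from 14.3% to 83.3%. It was 51.1% with only the bright probes, so the split of calls depends on which probes are tested. Of the genes named, the 32 that passed kept their sign in all alternatives run, and so did all but 2 of the other 78. The exceptions were CFL1 and CDC14B. The difference of CFL1 was 0.0432 without wolf 111080 and between -0.741 and 0.0432 with 1 wolf removed. With the HBD level in place of the sides, CFL1 had a slope of 0.0192 per unit of HBD. The difference of CDC14B was -0.00652 without wolf 11136 and between -0.00652 and 0.853 with 1 wolf removed. The signal range of the arrays between the sides, 0.00937 at the 95th percentile, was -0.0330 without the 3 noted wolves, -0.00398 without the wolves nearest to the boundary and between -0.0265 and 0.0360 with 1 wolf removed. The causes were not tested. No paired analysis was possible because the labels give no replicate numbers that pair wolves of the sides.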

Other observations

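The coyote, which entered neither side, had an HBD level of 5.39 in a fit of all 14 animals. The lowest wolf stood at 5.43 in the fit of the wolves alone, where slide effects were estimated separately, so the order of these values is not established. In the fit of all 14 animals the coyote lay nearer to the low-side mean than to the high-side mean for 48 of the 48 called probes. The same held for 57.2% of all probes tested and for 83.7% of probes above the background bound.

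After quantile normalization and after equal spread of the arrays, 5 of the 6 high-side wolves were still among the 6 with the highest HBD, and with 75th percentile centring or without the slide term all 6 were. All 6 were also among them with HBD taken from either part of each wolf's arrays.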
